A study of Homo sapiens with 16 samples.

Results

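The HOX genes of the 4 human clusters and the CDX genes were described in H1, a human embryonic stem cell line in wide use, in the presence and absence of BMP4. The list held 41 genes: 10 of the HOXA, 10 of the HOXB, 9 of the HOXC and 9 of the HOXD cluster, with CDX1, CDX2 and CDX4. They were found on the array by gene symbol, and 32 of them had a named probe, out of 20046 genes with one. The BMP4 arm was grown with 100 ng/ml BMP4, a bone morphogenetic protein ligand, and the untreated arm without it. Both arms were H1 cells on Matrigel in mTeSR medium, sampled daily as days 0 to 7 with 1 bead array per arm and day, 16 arrays in all. H1 is a single line, and the labels name no separate cultures for neighbouring days. Days of an arm therefore stand in for replicates, and p-values measure the spread between those arrays, which holds both the change with time and technical error.

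HOX genes encode homeodomain transcription factors that give cells of the trunk and limbs their position along the body axis. Their paralog numbers follow their order in the cluster, and in vertebrate embryos genes at the low-numbered end are switched on earlier and further forward than those at the high-numbered end. CDX proteins are related homeodomain factors that act downstream of WNT, FGF and BMP signals at the posterior end of the embryo, where they bind to regulatory elements of HOX clusters. CDX2 is also made in trophectoderm, the layer that gives rise to the placenta.

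Values are fluorescence intensities of the deposited table. A detection floor of 134 was set from the dim side of the background peak, so that 1% of background values lie above it, and 24 of the 32 genes exceeded it on at least 1 array. Of these, 20 genes lay above the floor on 3 or more arrays and were tested, comprising 7 HOXB, 4 HOXC, 6 HOXD and 3 CDX genes. Of HOXA, only HOXA2 had a named probe, with intensities of 112 to 141 and 1 array above the floor. HOXA2 passed over days 4 to 7 in the fit without a filter (log2 change 0.34, adjusted p = 0.0399). HOXA3, HOXA4, HOXA5, HOXA6, HOXA7, HOXA9, HOXA10, HOXA11 and HOXA13 were not analysed here. Changes are given on the log2 scale after background correction and an offset of 16, and were tested with limma across 13383 genes with Benjamini-Hochberg adjustment at 0.05. "At least N-fold" marks a gene whose arrays in the lower arm were all at or below the floor, with the floor in their place. Where a plain fold is given for HOXB4, HOXD11 over days 1 to 3, MESP1, WNT5A, ALDH1A2, STRA6, KDM6B, SNX10, HOTTIP, HEY1, SNAI2, OTX2 or SOX10, some but not all arrays of the lower arm were above the floor.

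The cells carried the marks of the labelled cell type and lost part of them under BMP4. POU5F1, a core pluripotency factor, averaged 2069 ± 671 in BMP4 cells and 4304 ± 607 in untreated cells over days 4 to 7 (SD, n = 4 each). SOX2 averaged 329 ± 69.9 in BMP4 cells and 2942 ± 233 in untreated cells, and NANOG averaged 235 ± 32.4 in BMP4 cells and 263 ± 39.1 in untreated cells. SOX2 and POU5F1 fell in limma (log2 changes of -3.69 and -1.14), though POU5F1 missed the threshold with the day 0 gap taken off (adjusted p = 0.129), while NANOG did not pass (log2 change -0.28, adjusted p = 0.275). The arms also differed on day 0, when 7.67% of the tested genes differed at least 2-fold between the day 0 arrays, against 0.239% to 1.2% for neighbouring untreated days after day 1 and 4.66% for untreated days 0 and 1. HOX and CDX calls that the day 0 difference changes are given as such. The BMP4 array of day 0 carries the same label of 100 ng/ml BMP4 as the later days. The day 0 difference can therefore not be read as a difference before treatment. Subtraction of it rests on 1 array per arm and widens the SE. For HOXB2 over days 1 to 3 the SE went from 0.60 to 1.21, with log2 changes of 1.93 and 1.95. A call lost in this way need not mean a smaller change.

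Over days 4 to 7, 16 of the 20 tested HOX and CDX genes were higher in BMP4 cells and 0 were lower, where 27.3% of all tested genes were higher and 26.6% lower (limma, adjusted). At an unadjusted p under 0.05 the count of lower genes was also 0. Over days 1 to 3, 9 were higher and 0 lower, against 16.1% and 13.3% of all tested genes, and 1 was lower at an unadjusted p under 0.05. Of the 20, 10 had no untreated array above the floor and so entered the test through the BMP4 arm, which makes these counts a description only. With all 32 genes and no filter, 19 were higher and 0 lower over days 4 to 7, where 18.6% of 20046 genes were higher and 17.8% lower. On the same terms 8 were higher and 0 lower over days 1 to 3, where 9.89% of genes were higher and 8.06% lower (at an unadjusted p under 0.05, 0 and 2 were lower). In bulk RNA, more cells of a type and more RNA per cell cannot be told apart. The median log2 change of those 32 over days 4 to 7 was 0.68, against -0.005 for all genes. With the day 0 difference subtracted, 12 of the 20 stayed higher over days 4 to 7, where 8.93% of all genes were higher, and over days 1 to 3 only CDX2 did, where 1.05% were. HOXD3 was then lower in both windows, where 1.3% of all genes were lower early and 10.6% late.

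CDX2 had the earliest onset of the 32 genes with a probe. Its intensity in BMP4 cells was 119.7, 321, 903, 743, 1144, 839, 578 and 623 on days 0 to 7, while the 8 untreated arrays lay between 113 and 129 with a median of 120.0. Every BMP4 array from day 1 on lay above every untreated array. CDX2 averaged 656 ± 301 in BMP4 cells and 117 ± 3.38 in untreated cells over days 1 to 3 (SD, n = 3 each), at least 14.6-fold higher (log2 change 4.45, SE 0.36, adjusted p = 2.3e-07). Over days 4 to 7 it averaged 796 ± 258 in BMP4 cells and 123 ± 3.67 in untreated cells (SD, n = 4 each), at least 19.9-fold higher (log2 change 4.73, SE 0.31, adjusted p = 4.73e-09). It remained higher in both windows after subtraction of the day 0 difference (adjusted p = 0.00641 and 0.000737).

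CDX1, which in mice patterns the vertebral column, followed 1 day later. It read 136, 134, 281, 265, 361, 328, 229 and 179 in BMP4 cells on days 0 to 7, against 103 to 129 (median 119) on the untreated arrays. It was at least 2.97-fold higher over days 1 to 3 and at least 4.68-fold higher over days 4 to 7 (log2 changes 2.08 and 2.78, SE 0.50 and 0.44, adjusted p = 0.00506 and 4.31e-05). CDX4, which in mice and zebrafish acts with its relatives in posterior axis and blood formation, was above the floor on all 16 arrays. It read 182, 176, 259.7, 362, 443, 426, 263 and 239 in BMP4 cells, against 150.4 to 213 (median 172) in untreated cells. The BMP4 arrays left the untreated range on day 2. CDX4 was 2.25-fold higher over days 1 to 3 (adjusted p = 0.0367, and 0.0516 to 0.184 without day 1, 2 or 3 of untreated cells or day 2 or 3 of BMP4) and 2.75-fold higher over days 4 to 7 (log2 change 1.46, SE 0.35, adjusted p = 0.00189). After the day 0 difference was taken off, CDX1 and CDX4 did not pass over days 4 to 7 (adjusted p = 0.0803 and 0.328).

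**Figure D1:**
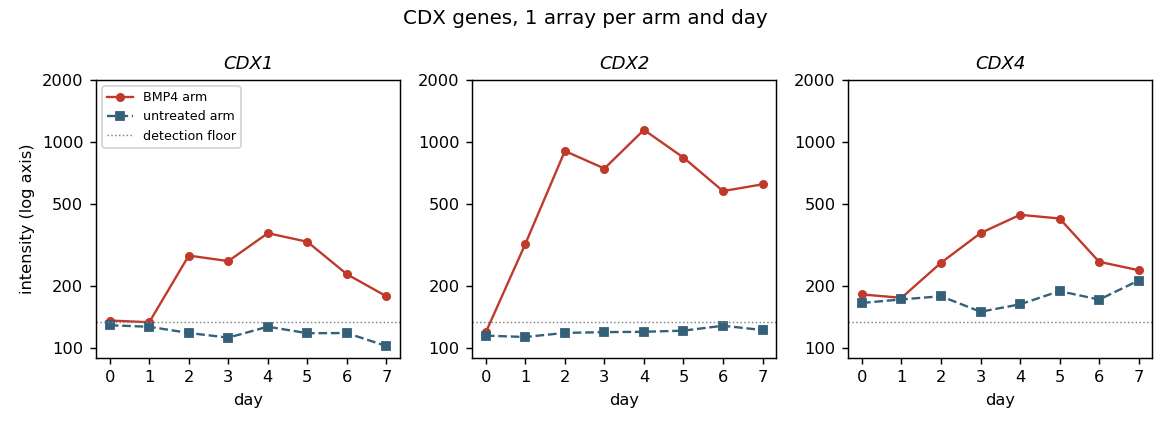
Intensity (log axis) of CDX1, CDX2 and CDX4 by day, with circles and a solid line for the BMP4 arm, squares and a dashed line for the untreated arm, 1 array per point, and a dotted line at the detection floor of 134. All 3 genes were highest on day 4 of BMP4, at 361, 1144 and 443, and lower on day 7, at 179, 623 and 239.

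All 3 CDX genes peaked on day 4 and were lower on days 6 and 7. Within the BMP4 arm over days 4 to 7 the slope was -0.61 log2 units per day for CDX1 (SE 0.10, adjusted p = 0.000844), -0.36 for CDX2 (SE 0.09, adjusted p = 0.0234) and -0.50 for CDX4 (SE 0.10, adjusted p = 0.0061). They were the 3 tested members with a falling slope that passed, where 3.43% of all genes had one. HOXB2, HOXB6, HOXC4, HOXC13, HOXD1 and HOXD4 also had negative slopes, which did not pass. HOXC8, HOXC6 and HOXB7 had a rising slope that passed over the same days (0.53, 0.38 and 0.32 log2 units per day, limma adjusted p = 0.00163, 0.0153 and 0.0342), where 5.7% of all genes had one. The difference of slopes between BMP4 and untreated cells passed for CDX4 (-0.72, adjusted p = 0.0132, where 0.934% of genes were lower) and HOXC8 (0.56, adjusted p = 0.0285, where 1.96% were higher), and not for the other 4. These slopes were tested after the levels had been seen. Without the BMP4 array of day 4, CDX1 was the only gene of these 6 that passed, and without that of day 7, CDX2 was the only CDX gene that did and HOXB7 did not (adjusted p = 0.17). CDX2 and HOXB7 also missed the threshold without day 6 of BMP4 (adjusted p = 0.067 and 0.0779), and the HOXC6 slope was 0.11 on the mean of its probes (adjusted p = 0.339). With an offset of 4, CDX2 and HOXB7 missed it as well (limma adjusted p = 0.0553 and 0.0895), and with no filter (0.0638 and 0.103).

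The RefSeq promoter table used here held 22 of the 41 genes, and the 250 bases before the start were searched on both strands for 3 short motifs. CTTTGA or, on the other strand, TCAAAG, the core bound by TCF and LEF factors at the end of the WNT pathway, stood in 4 of the 22 (HOXB1, HOXD12, CDX2 and CDX4), against 11.4% of all 27305 promoters. The promoters of CDX2 (GRCh38.p14, chr13:27969316-27969565, minus strand) and CDX4 (chrX:73446803-73447052, plus strand) are shown because these 2 genes rose and both hold it. HOXB1 and HOXD12, which hold it too, stayed at or below the floor on all 16 arrays. Capitals mark the motif, which begins 238 bases before the start in CDX2 and 219 in CDX4.
CDX2: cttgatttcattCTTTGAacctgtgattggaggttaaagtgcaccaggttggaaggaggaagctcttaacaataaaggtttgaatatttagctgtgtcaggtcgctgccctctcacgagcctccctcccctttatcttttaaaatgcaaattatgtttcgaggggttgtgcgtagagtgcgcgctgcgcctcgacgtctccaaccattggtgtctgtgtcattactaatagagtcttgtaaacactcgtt
CDX4: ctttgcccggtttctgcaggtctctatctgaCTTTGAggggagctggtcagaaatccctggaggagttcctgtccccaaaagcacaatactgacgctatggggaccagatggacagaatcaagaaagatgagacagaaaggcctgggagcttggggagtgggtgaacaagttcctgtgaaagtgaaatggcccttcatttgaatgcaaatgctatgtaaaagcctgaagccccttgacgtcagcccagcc
TTTATG or, on the other strand, CATAAA, a core bound by CDX proteins, stood in 2 of the 22, HOXA9 and HOXD8, against 10% of all promoters. HOXD8 stayed at or below the floor and HOXA9 was not analysed here. GGCGCC, a GC-rich element described for SMAD1, a BMP signal carrier, stood in 6 of the 22 (HOXA3, HOXA9, HOXA10, HOXC4, HOXC5 and HOXD11), against 16.1% of all promoters. The HOXC4 and HOXC5 matches are the same site, 178 bases before a shared start, so that promoter is counted for both genes. A match gives letters only and no evidence of binding, and where the table lists several promoters for a gene the first was taken. For the listed genes this was the first by coordinate, and for the share over all promoters the first in listed order. These choices can differ. Promoters not taken held the CDX core in HOXA3 and the TCF and LEF core in HOXA10.

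In the HOXB cluster, 6 of the 7 tested genes were higher over days 4 to 7 and 4 over days 1 to 3. Over all tested genes, 27.3% and 16.1% were higher in these windows. No untreated array lay above the floor for HOXB2, HOXB6, HOXB7 and HOXB8, which entered the test through the BMP4 arm. The count is thus a description. HOXB8, a trunk-level gene that also maintains myeloid progenitors, read 113, 106, 168, 526, 912, 1387, 1458 and 1315 in BMP4 cells on days 0 to 7, while the untreated arrays lay between 102 and 119.7 with a median of 109.8. All BMP4 arrays from day 2 on exceeded all untreated arrays. Over days 4 to 7 it averaged 1268 ± 244 in BMP4 cells and 116 ± 4.68 in untreated cells (SD, n = 4 each), at least 34.5-fold higher (log2 change 5.72, SE 0.56, adjusted p = 3.12e-07).

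HOXB5, a central-cluster gene, was above the floor in untreated cells on 7 of 8 arrays, at 127 to 152 (median 147). In BMP4 cells it read 155, 151, 221, 567, 1154, 1439, 1219 and 1258. The day 0 BMP4 array already lay just above the untreated range, and the arrays from day 2 on lay well above it. It was 26.0-fold higher over days 4 to 7 (log2 change 4.70, SE 0.43, adjusted p = 1.26e-07), at 1267 ± 122 in BMP4 cells and 146 ± 4.04 in untreated cells (SD, n = 4 each).

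HOXB2, which in mice specifies hindbrain segments, read 112, 113, 195, 458, 801, 833, 669.9 and 574 in BMP4 cells, against 108 to 128 (median 116) in untreated cells. It separated from the untreated arrays on day 2 and was at least 18.4-fold higher over days 4 to 7 (log2 change 4.78, SE 0.52, adjusted p = 9.7e-07). HOXB6 read 130.4, 122, 212, 339, 487, 459, 422 and 386 in BMP4 cells, against 115 to 134 (median 124) in untreated cells. HOXB6 was at least 10.1-fold higher over days 4 to 7 (log2 change 3.74, SE 0.44, adjusted p = 1.99e-06). Its second, dimmer probe gave a log2 change of 0.72. HOXB7 rose more slowly, with 106, 107, 134, 225, 333, 458, 491 and 577 in BMP4 cells, against 103 to 115 (median 109.5) in untreated cells. It was still at its highest on day 7, and was at least 10.6-fold higher over days 4 to 7 (log2 change 4.11, SE 0.38, adjusted p = 1.29e-07).

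Over days 1 to 3, HOXB8, HOXB2, HOXB5 and HOXB6 passed with log2 changes of 2.08, 1.93, 1.80 and 1.77 (SE 0.65, 0.60, 0.50 and 0.51, adjusted p = 0.0237, 0.0233, 0.0116 and 0.0143). Each had its day 1 BMP4 array inside the untreated range, so these early changes rested on days 2 and 3. HOXB7 did not pass (log2 change 1.10, adjusted p = 0.065). Without the BMP4 array of day 3, 5 of the 20 members passed over days 1 to 3, and HOXB8, HOXB2 and HOXB6 were not among them, with log2 changes of 0.89, 0.93 and 1.03. Without the untreated array of day 3 it was also 5, and HOXB8, HOXB2, HOXB6 and HOXB5 missed the threshold with log2 changes of 2.10, 1.81, 1.66 and 1.51. HOXB2 also missed the threshold without day 1 of untreated cells or day 2 of BMP4 (adjusted p = 0.0628 and 0.0634), HOXB6 without day 2 of BMP4 (0.0588), and HOXB8 without day 1 or day 2 of untreated cells (0.0611 and 0.0597).

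The genes between these behaved otherwise. HOXB4, known for its use in expanding blood stem cells, read 121 to 154 (median 142) in BMP4 cells and 119 to 139 (median 129) in untreated cells. It was 1.63-fold higher over days 4 to 7 (log2 change 0.71, SE 0.21, adjusted p = 0.00814). Once the day 0 gap was taken off, HOXB4 missed the threshold, with a larger log2 change of 1.28 and a larger SE of 0.46. HOXB3 read 124 to 169 in BMP4 cells and 121 to 136 in untreated cells, with overlapping arrays over days 4 to 7, and did not pass (log2 change 0.51, SE 0.22, adjusted p = 0.0623). Its dimmer probe gave 1.04, and HOXB3 passed on the mean of its probes (adjusted p = 0.00323) and without day 4 of BMP4 (adjusted p = 0.00182). In RefSeq order HOXB3 and HOXB4 lie between HOXB2 and HOXB5, whose changes over the same days were 4.78 and 4.70. HOXB9, next to HOXB8, was above the floor on 2 BMP4 arrays only and reached 139.5 on day 7, against 103 to 116 in untreated cells. It passed in the fit without a filter (log2 change 0.64, adjusted p = 1.6e-05). HOXB1 stayed at or below the floor on all 16 arrays, and HOXB13 exceeded it on 1.

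**Figure D2:**
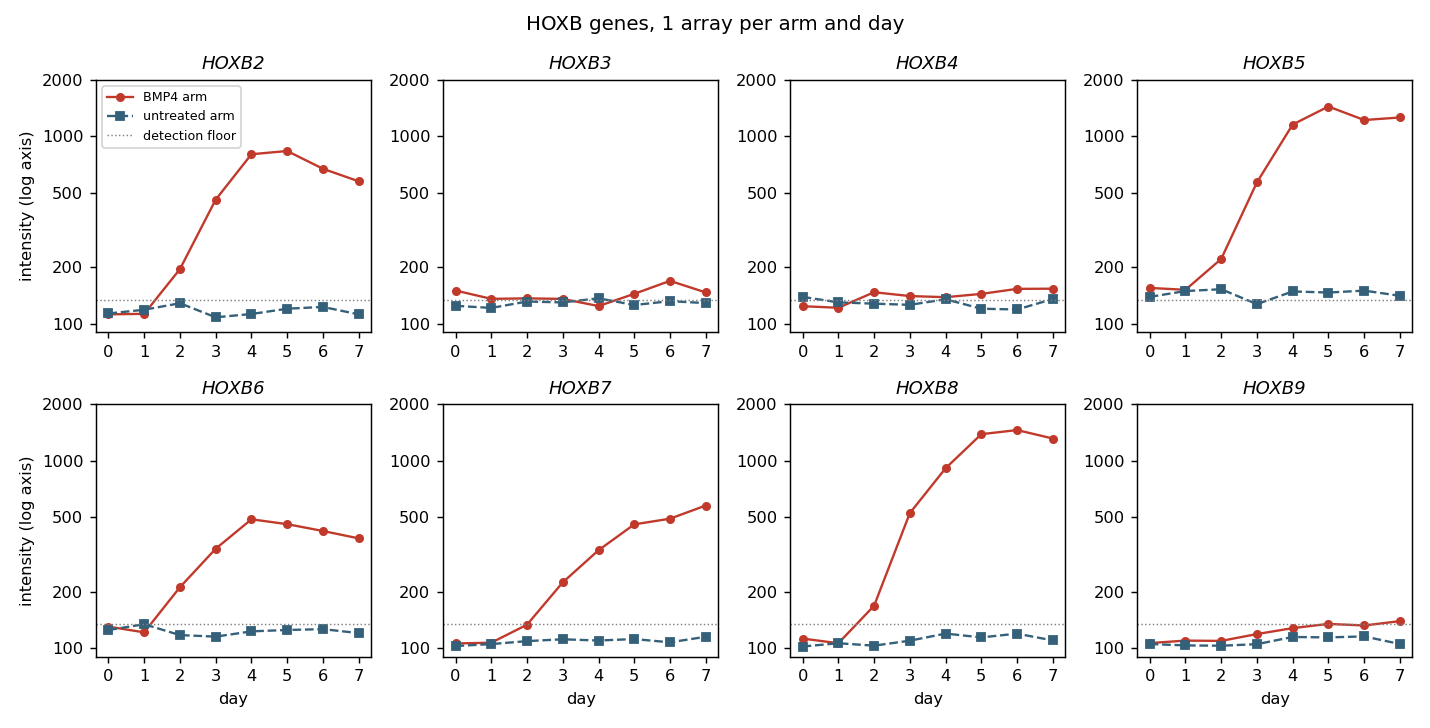
Intensity (log axis) of 8 HOXB genes by day, with circles and a solid line for the BMP4 arm, squares and a dashed line for the untreated arm, 1 array per point, and a dotted line at the detection floor of 134. HOXB2, HOXB5, HOXB6, HOXB7 and HOXB8 lay at 333 or more from day 4 of BMP4, while HOXB3, HOXB4 and HOXB9 stayed at 169 or less.

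In the HOXC cluster, 4 of the 4 tested genes were higher over days 4 to 7 and 0 over days 1 to 3 (limma, adjusted, also 0 at an unadjusted p under 0.05). The shares over all tested genes were 27.3% and 16.1%. HOXC4 and HOXC8 had no untreated array above the floor and entered the test through the BMP4 arm, so the count is a description. HOXC6, a thoracic-level gene, read 123, 125, 143, 275, 474, 754, 867 and 954 in BMP4 cells, against 117 to 169.5 (median 147) in untreated cells. The BMP4 arrays left the untreated range on day 3. HOXC6 averaged 762 ± 209 in BMP4 cells and 158 ± 7.83 in untreated cells over days 4 to 7 (SD, n = 4 each), 11.3-fold higher (log2 change 3.50, SE 0.40, adjusted p = 1.68e-06). Its other 3 probes, all dimmer, gave log2 changes of -0.07, -0.0028 and 0.51, so the change rests on 1 of 4 probes.

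HOXC8, which in mice sets thoracic identity and motor neuron pools, read 111, 116, 116, 163, 213, 291, 347 and 453 in BMP4 cells, against 107 to 120.0 (median 114) in untreated cells. Its arrays separated on day 3 and climbed on every later day. HOXC8 was at least 6.24-fold higher over days 4 to 7 (log2 change 3.28, SE 0.32, adjusted p = 2.62e-07). HOXC4 read 110.0, 111, 119, 141, 171, 184, 173 and 170.0 in BMP4 cells, against 107 to 120.5 (median 111) in untreated cells, and was at least 2.20-fold higher (log2 change 1.85, SE 0.18, adjusted p = 2.29e-07), with 0.12 on its second probe. RefSeq gives HOXC4, HOXC5 and HOXC6 a shared start, and a probe may read transcripts of more than 1 of them. HOXC5 stayed at or below the floor on all 16 arrays.

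HOXC13, at the posterior end of its cluster and needed for hair and nails, was above the floor on all 16 arrays. It read 144, 174, 189.5, 204, 237, 196, 194 and 195 in BMP4 cells, against 135 to 188 (median 158) in untreated cells, with the BMP4 arrays of days 0 and 1 inside the untreated range. Over days 4 to 7 HOXC13 had a log2 change of 1.04 (2.06-fold, SE 0.24, adjusted p = 0.00167), with no overlap of the arms in that window. HOXC9 exceeded the floor on 2 BMP4 arrays, at 140.1 on day 6 and 135 on day 7, and passed in the fit without a filter (log2 change 0.53, adjusted p = 0.00357). HOXC10, HOXC11 and HOXC12, which lie between HOXC9 and HOXC13, stayed at or below the floor throughout.

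In the HOXD cluster, 3 of 6 tested genes were higher over days 4 to 7 and 2 over days 1 to 3. The shares over all tested genes were 27.3% and 16.1%. HOXD1 and HOXD13 had no untreated array above the floor and entered the test through the BMP4 arm, so the count is a description. HOXD11, which patterns forearm and kidney with its paralogs in mice, read 132, 148, 159, 276, 362, 434, 464 and 473 in BMP4 cells, against 113 to 141 (median 123) in untreated cells. All BMP4 arrays from day 1 on lay above all untreated arrays. HOXD11 was 2.68-fold higher over days 1 to 3 (log2 change 1.42, SE 0.36, adjusted p = 0.00648) and at least 9.91-fold higher over days 4 to 7 (log2 change 3.68, SE 0.31, adjusted p = 5.14e-08).

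HOXD10, a lumbar and limb gene, read 121, 117, 129.9, 133, 165, 172, 199.7 and 205 in BMP4 cells, against 118 to 151 (median 125) in untreated cells, of which the highest was day 0. From day 4 on the BMP4 arrays exceeded every untreated array, and HOXD10 was at least 2.48-fold higher over days 4 to 7 (log2 change 1.65, SE 0.18, adjusted p = 1.17e-06). HOXD13, which shapes the digits, read 108, 113, 119, 128, 132, 135, 136 and 137 in BMP4 cells, against 103 to 117 (median 109.9) in untreated cells. It reached 137 at most, against a floor of 134, and was at least 1.02-fold higher over days 4 to 7 (log2 change 0.72, SE 0.14, adjusted p = 0.000239). Once the day 0 gap was taken off, HOXD13 missed the threshold, with a log2 change still of 0.72 and a larger SE of 0.30.

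HOXD1, at the anterior end, was the tested member that passed over days 1 to 3 and not over days 4 to 7. It read 109, 132, 153, 139.8, 136, 113, 117 and 117 in BMP4 cells, against 99.5 to 112 (median 103) in untreated cells. HOXD1 was at least 1.19-fold higher over days 1 to 3 (log2 change 1.02, SE 0.21, adjusted p = 0.00132) and did not pass over days 4 to 7 (log2 change 0.33, adjusted p = 0.125), although it did without background correction (0.21, adjusted p = 0.00725). The difference between the windows did not pass either (log2 difference -0.69, adjusted p = 0.122). HOXD3 and HOXD4, cervical-level genes in mice, did not pass in either window. HOXD3 read 185 in BMP4 cells and 129 in untreated cells on day 0, and 119.9 to 138 in BMP4 cells and 128 to 148 in untreated cells afterwards. Its log2 change over days 4 to 7 was 0.10, and -1.44 with the day 0 difference subtracted (adjusted p = 0.0135), so its direction depended on the BMP4 array of day 0. HOXD8, HOXD9 and HOXD12 stayed at or below the floor on all arrays.

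**Figure D3:**
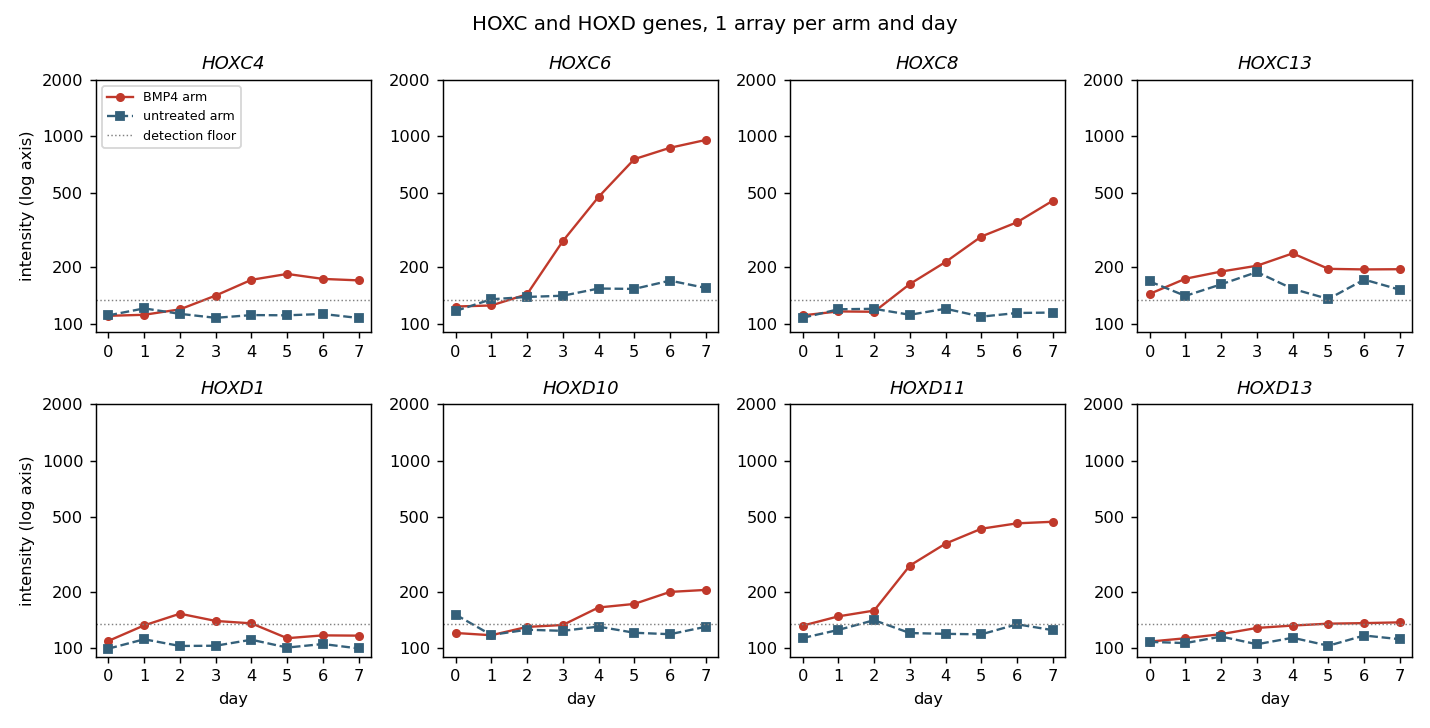
Intensity (log axis) of 4 HOXC and 4 HOXD genes by day, with circles and a solid line for the BMP4 arm, squares and a dashed line for the untreated arm, 1 array per point, and a dotted line at the detection floor of 134. HOXC6, HOXC8 and HOXD11 reached 954, 453 and 473 on day 7 of BMP4, while HOXD1 was highest on day 2, at 153.

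HOXD11 was detected under BMP4 while its neighbour HOXD12 lay at or below the floor on every array, so the promoters of both are shown. Capitals mark GGCGCC in HOXD11 (GRCh38.p14, chr2:176107030-176107279, plus strand) and CTTTGA in HOXD12 (chr2:176099545-176099794, plus strand).
HOXD11: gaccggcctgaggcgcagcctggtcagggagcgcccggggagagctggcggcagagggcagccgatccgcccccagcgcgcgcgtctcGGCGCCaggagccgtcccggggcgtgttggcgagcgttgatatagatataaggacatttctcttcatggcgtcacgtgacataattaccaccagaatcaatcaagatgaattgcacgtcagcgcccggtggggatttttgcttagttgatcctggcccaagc
HOXD12: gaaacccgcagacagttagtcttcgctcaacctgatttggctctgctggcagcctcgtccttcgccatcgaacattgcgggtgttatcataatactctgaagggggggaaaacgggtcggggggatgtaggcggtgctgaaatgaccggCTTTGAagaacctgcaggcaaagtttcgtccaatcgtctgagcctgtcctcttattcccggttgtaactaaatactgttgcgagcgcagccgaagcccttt
The motif begins 162 bases before the start in HOXD11 and 101 in HOXD12. TTTATG was in neither window.

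The effect of BMP4 differed between the windows for 9 of the 20 tested members, all larger over days 4 to 7, where 4.93% of all tested genes had a larger late effect and 4.31% a smaller one. Among the 9, HOXB2, HOXB7, HOXB8, HOXC4 and HOXC8 had no untreated array above the floor. They entered the test through the BMP4 arm, so the count is a description. The log2 difference was 3.64 for HOXB8, 3.01 for HOXB7, 2.90 for HOXB5, 2.86 for HOXC6, 2.85 for HOXB2, 2.81 for HOXC8, 2.25 for HOXD11, 1.54 for HOXC4 and 1.49 for HOXD10, with adjusted p from 0.00303 to 0.0337. HOXB2 was the least certain of them, with adjusted p of 0.0548 to 0.08 without any 1 of days 1 to 7 of untreated cells or day 2, 5 or 6 of BMP4. For the 3 CDX genes it was 0.28 to 0.70 and did not pass (adjusted p of 0.558 to 0.783). In untreated cells, 0 members passed between days 4 to 7 and days 1 to 3 by limma, with 0 at an unadjusted p under 0.05, where 0.0747% of all genes were higher late. The largest such shift was that of HOXC6, 158 ± 7.83 over days 4 to 7 and 138 ± 3.03 over days 1 to 3 (log2 change 0.61, adjusted p = 0.835).

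**Figure D4:**
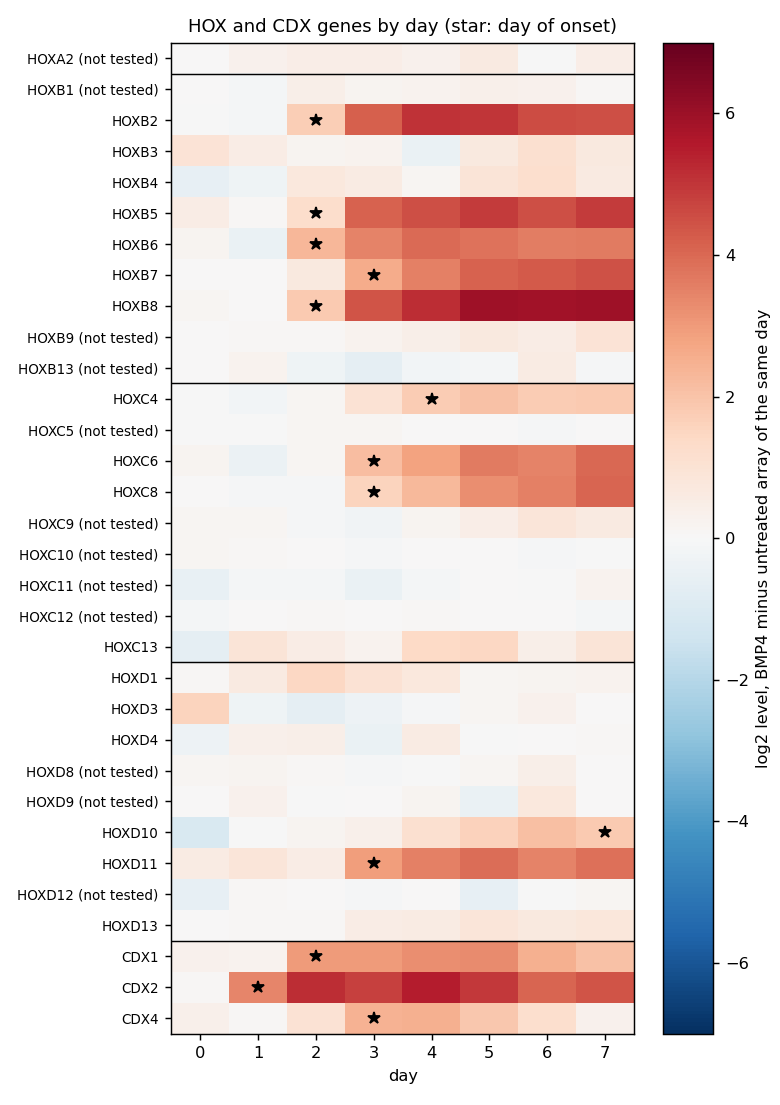
Log2 level of the BMP4 array minus the untreated array of the same day for the 32 HOX and CDX genes with a probe (down, by cluster and paralog number) on days 0 to 7 (across), with a star on the day of onset. Stars begin with CDX2 on day 1 and stand on day 2 for HOXB2, HOXB5, HOXB6, HOXB8 and CDX1.

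The day of onset was taken as the first day on which the BMP4 array lay above the floor and at least 2-fold above the highest of the 8 untreated arrays, and did so on the next day too. Day 7, with no next day, was judged on its own array. An onset was found for 13 of the 32 genes (40.6%), against 5.73% of all genes with a named probe. CDX2 came on day 1. CDX1, HOXB2, HOXB5, HOXB6 and HOXB8 came on day 2, and CDX4, HOXB7, HOXC6, HOXC8 and HOXD11 on day 3. HOXC4 came on day 4 and HOXD10 on day 7, HOXD10 thus on 1 array alone. Of these 13 genes, 11 had their onset by day 3, while 36.1% of the onsets over all genes had come by then. Without the day 7 onsets, which were 175 of the 1149, it was 11 of 12 members and 42.6% over all genes.

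By cluster, 5 of 10 HOXB, 3 of 9 HOXC and 2 of 9 HOXD genes had an onset, with days 2 to 3, 3 to 4 and 3 to 7. The HOXB days lay at or before those of the HOXC and HOXD genes. By paralog number, the onset did not run in strict order along a cluster under this rule. In HOXB, paralogs 2, 5, 6 and 8 shared day 2 and paralog 7 followed on day 3, while paralogs 1, 3, 4, 9 and 13 had none. In HOXC, paralog 4 came after paralogs 6 and 8, and in HOXD paralog 11 came before paralog 10. Across the 10 HOX genes with an onset, Spearman's rho between day and paralog number was 0.36, and 0.35 across the 5 of HOXB. These genes share arrays and the coarse daily sampling, so rho is a description.

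**Figure D5:**
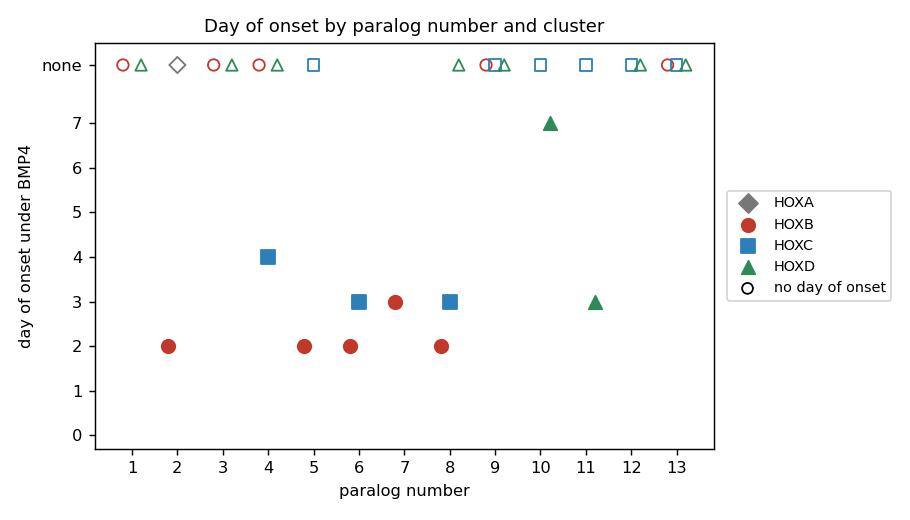
Day of onset under BMP4 (vertical) against paralog number (horizontal) for the 29 HOX genes with a probe, by cluster, with open symbols at the top for genes with no onset. Onsets lie between day 2 and day 4 for paralogs 2 to 8, with HOXD11 on day 3 and HOXD10 on day 7.

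The order held in part when the rule was changed. CDX2 kept day 1 and CDX1 day 2 under all 7 versions of the rule. HOXB2, HOXB5, HOXB6 and HOXB8 came on day 2 or 3, HOXB7 on day 3 or 4 and HOXD11 on day 3 or 4. HOXC8 moved between days 3 and 5, HOXC6 between days 3 and 6, and HOXD10, in the 5 versions that gave it an onset, between days 4 and 7. CDX4 came on day 2 or 3 in 5 versions and had no onset in the other 2. HOXC4 had an onset, on day 3 or 4, in 4 of the 7, and HOXD1 had one, on day 2, in 3 of the 7. With a threshold of 0.6 log2 units, or against the untreated array of the same day, HOXC4, HOXC6 and HOXC8 all came on day 3 and HOXD1 preceded HOXD11 and HOXD10.

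The ligands and readouts of the WNT pathway, which acts on CDX genes in vertebrate embryos, were measured on the same arrays. Of 11 tested genes, 8 were higher and 3 lower over days 4 to 7, and 8 were higher and 1 lower over days 1 to 3, where 27.3% and 26.6% of all genes were higher and lower late and 16.1% and 13.3% early. With the day 0 gap taken off it was 4 higher and 2 lower late, and 2 higher and 0 lower early (limma; 1 lower at an unadjusted p under 0.05). Over all genes 8.93% were then higher and 10.6% lower late, and 1.05% and 1.3% early. WNT5B and WNT8A had no untreated array of days 1 to 7 above the floor. The filter drew on the BMP4 arm for them, so the counts of this list are a description. WNT5B was at least 22.2-fold higher over days 4 to 7 (log2 change 4.74), WNT5A 14.7-fold (3.88) and LEF1, a nuclear partner of beta-catenin, 11.2-fold (3.48). TCF7L1, a repressor of WNT targets, had a log2 change of -2.10, SP8 was 1.94-fold lower and TCF7L2 1.74-fold lower. WNT3 and WNT5B had their onset on day 1, as did CDX2 and 125 genes in all. WNT5A, WNT8A, LEF1 and SP5 followed on day 2 and WNT3A on day 3. TCF7L1, TCF7L2, SP8 and AXIN2 had none. A link between these onsets and that of CDX2 was not tested.

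Of 9 tested genes of the primitive streak and posterior progenitors, 6 were higher in each window and 0 lower (limma, also 0 lower at an unadjusted p under 0.05). These counts stand against 16.1% higher and 13.3% lower over all genes early, and 27.3% and 26.6% late. TBXT, MSGN1 and FGF8 had no untreated array of days 1 to 7 above the floor, and MIXL1 had none of days 4 to 7. The filter drew on the BMP4 arm for such genes, so the counts are a description. Taking off the day 0 gap left 1 of the 9 higher in each window, where 1.05% of all genes were higher early and 8.93% late. Over days 4 to 7 it was TBXT, narrowly (log2 change 3.45). GDF11, a gene named after its value was seen, was then lower late (log2 change -0.98), where 10.6% of all genes were. TBXT, the streak and notochord factor, read 139, 655, 1749, 1627, 1381, 416, 248 and 219.9 in BMP4 cells on days 0 to 7, and 111 to 136 in untreated cells. It had its onset on day 1 and its peak on day 2. Over days 4 to 7, MESP1, an early mesoderm factor, was 13.9-fold higher, TBXT at least 8.72-fold and MIXL1 at least 4.45-fold.

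Retinoic acid, made from vitamin A, activates low-numbered HOX genes directly. Of 14 tested genes of its synthesis, transport, receptors and breakdown, 7 were higher and 2 lower over days 4 to 7, against 27.3% and 26.6% of all genes. ALDH1A2, which makes retinoic acid, had a log2 change of 4.10 (17.2-fold, SE 0.51, adjusted p = 3.46e-06) and its onset on day 3. ALDH1A3 was 3.77-fold higher and STRA6, a retinol transporter, 2.92-fold higher. CYP26A1, which breaks retinoic acid down, was 4.85-fold lower, and DHRS3 2.25-fold lower. ALDH1A3, another enzyme that makes retinoic acid, met the onset rule on day 0, with 402 in BMP4 cells and 209.7 in untreated cells on that day. This is a day 0 difference between the arms and gives no order against the HOX and CDX genes. With it subtracted, the log2 change of ALDH1A3 over days 4 to 7 was 0.44. CRABP2, CYP26B1, RARB and RXRB are the other 4 higher genes. With the day 0 gap taken off 4 of the 14 were higher and 2 lower, where 8.93% and 10.6% of all genes were. RARB had no untreated array of days 1 to 7 above the floor. The filter drew on the BMP4 arm for it, so the counts of this list are a description.

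PBX, MEIS and PKNOX proteins bind DNA together with HOX proteins. Of 8 tested genes, 5 were higher and 1 lower over days 4 to 7, against 27.3% and 26.6% of all genes. MEIS2 averaged 694 ± 176 in BMP4 cells and 129 ± 9.46 in untreated cells (SD, n = 4 each), 19.5-fold higher with 2 of the 4 untreated arrays above the floor, and MEIS1 was 4.57-fold higher. Both had their onset on day 3. PKNOX2 was 2.33-fold higher and PBX2 1.49-fold lower. For these cofactors the counts with the day 0 gap taken off were 3 higher and 0 lower (also 0 lower at an unadjusted p under 0.05), where 8.93% and 10.6% of all genes were. Of 13 tested regulators of HOX chromatin, 2 were higher and 6 lower, where 27.3% and 26.6% of all genes were. With the day 0 gap taken off 0 were higher and 5 lower (0 higher at an unadjusted p under 0.05), where 8.93% and 10.6% of all genes were. BMI1 was 1.89-fold and KDM6B, a demethylase of the Polycomb mark, 1.47-fold higher. JARID2, which recruits the Polycomb complex, was 3.00-fold lower, CBX7 2.19-fold and EED, a core subunit, 2.12-fold.

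Of 25 tested genes placed beside the HOX clusters, 8 were higher and 8 lower over days 4 to 7, shares of the order of the 27.3% and 26.6% over all genes. With the day 0 gap taken off 2 were higher and 2 lower, where 8.93% and 10.6% of all genes were. SKAP1, PRAC1 and PRAC2 had no untreated array of days 1 to 7 above the floor. The filter drew on the BMP4 arm for them, so these counts are a description. PRAC1 and PRAC2, which RefSeq places between HOXB9 and HOXB13, were among the higher ones. PRAC1 read 124, 158, 267, 514, 452, 668, 638 and 553 in BMP4 cells, against 108 to 127 in untreated cells, and was at least 14.1-fold higher (log2 change 4.39, adjusted p = 7.71e-08), with onset on day 1. PRAC2 was at least 2.20-fold higher, and LNPK, next to HOXD13 and EVX2, 2.62-fold. CBX1 was 2.61-fold lower, SNX10 2.33-fold (log2 change 0.090 with the day 0 difference subtracted) and TTLL6 at least 1.73-fold.

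Of the noncoding RNAs of the clusters, 2 were tested and both were higher over days 4 to 7, where 27.3% of all genes were. HOXA11-AS had no untreated array above the floor and entered the test through the BMP4 arm, so the count is a description. HOXA11-AS, transcribed opposite HOXA11, read 123, 115, 127, 197, 241, 322, 342 and 402 in BMP4 cells, against 107 to 123 in untreated cells. It separated from the untreated arrays on day 3 and was at least 6.55-fold higher (log2 change 3.25, SE 0.34, adjusted p = 5.85e-07). HOTTIP, transcribed beside HOXA13, was 1.87-fold higher (adjusted p = 0.000421). The ParaHox genes PDX1, GSX1 and GSX2 and the genes EVX1 and EVX2, relatives of HOX and CDX genes, were at or below the floor on all arrays of days 1 to 7.

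Markers of several cell types moved together with the HOX and CDX genes. Counts of them are a description, since many lay at or below the floor on all untreated arrays of days 4 to 7. These were GATA2, GATA3, PSG4, VTCN1, TBX3, TBX20, FOXF1, NKX2-5, MEF2C, SOX17 and GATA4, for which the filter drew on the BMP4 arm. Over days 4 to 7, 7 of 9 trophoblast, 6 of 6 amnion, 9 of 9 lateral and cardiac mesoderm and 5 of 6 endoderm markers were higher in BMP4 cells, where 27.3% of all genes were. With the day 0 gap taken off it was 3 of 9 trophoblast, 6 of 6 amnion, 7 of 9 mesoderm and 2 of 6 endoderm markers, where 8.93% of all genes were higher. Background-corrected intensities summed over each list were 2603 to 3454 in BMP4 cells and 340 to 415 in untreated cells for trophoblast, and 25557 to 29595 in BMP4 cells and 1007 to 1508 in untreated cells for amnion. They were 19892 to 21650 in BMP4 cells and 128 to 226 in untreated cells for mesoderm, and 1600 to 2508 in BMP4 cells and 134 to 273 in untreated cells for endoderm. GATA2 rose at least 7.52-fold, GATA3 at least 5.53-fold, TFAP2A 17.3-fold, ISL1 88.9-fold, HEY1 26.5-fold, HAND1 165-fold, SNAI2 35.3-fold and CXCR4 12.5-fold, and SOX17 had a log2 change of 3.83. ELF5, a trophoblast factor, was at or below the floor on all arrays of BMP4 cells from day 1 on. Of the same list, CGB5 and HLA-G did not pass over days 4 to 7. With the day 0 gap taken off, GATA2, GATA3 and TFAP2A were the trophoblast markers that stayed higher. TFAP2C, KRT7, CGA and PSG4 then missed the threshold, with log2 changes of 0.90, 1.60, 1.64 and -0.09. Of hindbrain and spinal cord markers, 0 of 3 tested were higher and SOX10 was 1.98-fold lower (limma; 0 higher at an unadjusted p under 0.05). Of 5 tested forebrain and neural markers, 0 were higher and 3 lower, where 27.3% and 26.6% of all genes were. At an unadjusted p under 0.05, 1 of them was higher. OTX2 was 12.8-fold, SIX3 at least 7.61-fold and PAX6 at least 2.19-fold lower. Once the day 0 gap was taken off, MESP1, MIXL1, TCF7L2, ALDH1A3, PKNOX2, PBX2, BMI1, KDM6B, CBX7, LNPK, TTLL6, SNX10, CBX1, HOTTIP, SOX17, PAX6 and SOX10 did not pass over days 4 to 7. The part of these cell types in the HOX and CDX levels was not tested.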

How the data were processed

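Total RNA of the 16 samples was read on 1-colour Illumina bead arrays, per the labels' protocols. The authors deposited linear intensities for 47323 probes, with the software and normalization not given in the sources used here. From the values, the 16 arrays share 1 distribution, as after quantile normalization, with 42.5% of probes above the floor of 134.412 on each, and are precise only as far as their number allows. The platform annotation gave 1 gene symbol for 30113 probes, several for 8 and none for 17202. The second deposited table (32 columns with names that match no label) was not used, so Illumina's own background correction could not be run. The background peak (117.363, SD 7.67) was taken from the values mirrored about it, normexp correction was applied, 16 was added and log2 taken. The brightest probe stood for a gene. Genes above the floor on at least 3 arrays were fitted with limma 3.58.1 in R 4.3.3 (lmFit, eBayes with trend), with a mean per arm and window, two-sided tests and Benjamini-Hochberg adjustment over 13383 genes. The scripts were tested on simulated data. Python 3.11.15 with pandas 2.3.3 and matplotlib 3.10.9 drew the figures and searched RefSeq promoters. All listed members were named, with at most 3 of the largest changes each way from each gene list. Members and lists were chosen with earlier results of these data known. Arms share day numbers. The deviations of same-day arrays correlated at -0.036 to 0.284, which does not show that the numbers pair samples, so no day block was used. Other offsets, scalings, filters, probe rules, windows and left-out arrays were tried.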

Additional observations from a re-analysis of the deposited data

Results flagged for a closer look

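Of 128 sets of 4 to 8 arrays, 16 had an array that stood apart by Dixon's ratio, where chance gives about 5 in 100. The ratio is the gap to the neighbouring array over the whole range, both on log2 levels after background correction. The values beside it are intensities, from which it cannot be worked out directly. CDX2 on day 0 of BMP4 was the lowest of its arm (ratio 0.592; 119.7, others 321 to 1144), and HOXD3 on the same array was the highest of its arm (0.649; 185, others 119.9 to 138). HOXD10 was highest on untreated day 0 (0.639; 151, others 118 to 130.4). On day 4 of BMP4, HOXC13 (0.96; 237, others 194 to 196) and HOXD1 (0.888; 136, others 113 to 117) were highest of days 4 to 7, and HOXD3 was lowest (0.889; 129). Among untreated days 4 to 7, HOXC6 was highest on day 6 (0.874; 169.5, others 153 to 155).

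Genes near or below the floor also had such arrays. On day 6 of BMP4, HOXB13 (0.631 over all days and 0.891 over days 4 to 7), HOXD8 (0.572) and HOXD9 (0.553) were highest, and HOXC11 was highest on day 7 of BMP4 (0.561). On untreated arrays, HOXB1 (0.542) and HOXC4 (0.681) were highest on day 1, HOXD9 on day 5 (0.647) and HOXC12 on day 7 (0.872).

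The BMP4 effect was larger over days 4 to 7 than over days 1 to 3, by limma's test of that difference, for 9 genes. Over all tested genes, 4.93% had a larger late effect. HOXB2, HOXB7, HOXB8, HOXC4 and HOXC8 entered the test through the BMP4 arm, so the count is a description. The log2 difference was 2.85 for HOXB2, 2.90 for HOXB5, 3.01 for HOXB7, 3.64 for HOXB8, 1.54 for HOXC4, 2.86 for HOXC6, 2.81 for HOXC8, 1.49 for HOXD10 and 2.25 for HOXD11.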

How the results depend on the processing

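When any 1 array was left out, the count of higher members over days 4 to 7 lay between 16 and 17. With the day 0 difference subtracted, 1 member was higher and 1 lower over days 1 to 3 and 1 lower over days 4 to 7, HOXB3 turned to -0.61 and -0.43, HOXD3 to -1.44 over days 4 to 7, and SNX10, a neighbour of HOXA, to 0.090. With days 1 to 2 as the early window, 2 members were higher, and HOXC4 (-0.030), HOXC6 (-0.11) and HOXC8 (-0.088) turned. Leaving out 1 array at a time gave 5 to 11 higher and 0 to 1 lower over days 1 to 3, 0 to 1 with a smaller late effect (HOXD1, without BMP4 day 4), and 0 to 3 rising and 1 to 3 falling slopes under BMP4. The fewest, 5, came without day 3 of either arm. Under the same omissions the early change ranged from -0.16 to 1.22 for HOXC6, -0.031 to 0.72 for HOXC8 and -0.034 to 0.30 for HOXD4. The late minus early difference ranged from -0.037 to 0.44 for HOXB3, -0.14 to 0.19 for HOXD4, -0.10 to 1.13 for CDX1, -0.29 to 0.65 for CDX2 and -0.19 to 0.71 for CDX4, with the negative CDX values without day 1 of BMP4. A replicate block on day left the counts at 9, 16 and 9 for the early, late and late minus early comparisons, with HOXB7 passing early (limma, adjusted p = 0.0423) and CDX4 not (0.0514). The cause of these moves was not tested. Arrays near the floor limit what can be seen of dim genes.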
